A study of Mus musculus with 10 samples.

Results

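The 33 genes described here encode proteins of the presynaptic terminal: the vesicle membrane and its transmitter transporters, the calcium sensors and SNARE proteins that fuse the vesicle with the plasma membrane, the scaffolds of the active zone and part of the machinery that retrieves the vesicle. A gene belonged to the set by its symbol, and its expression was read from the Affymetrix probe set that the platform annotation gave to that symbol alone, taking the brightest one on average where a gene had several. All 33 genes had such a probe set, out of 18193 genes in all. For none of them did the probe set used lie below the lower quartile of the array on every array. The main comparisons applied no filter on brightness, to these genes or to the others. The arrays measured total RNA from 1 brain hemisphere of male mice, the side of the operation, collected 24 h after surgery. Surgery was either occlusion of the middle cerebral artery (MCAO), which cuts off blood to much of the striatum and overlying cortex, or a sham operation. Each of 2 genotypes, wild-type (WT) and Hsp72Tg, had 2 sham and 3 MCAO arrays, which makes 4 groups. Hsp72Tg mice overexpress the inducible heat shock protein Hsp72. The promoter of that transgene, the strain and the age of the mice, and whether each array stands for 1 separate animal are unstated in the labels, so the p-values below measure the spread between these arrays.

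A nerve terminal releases transmitter when an action potential opens calcium channels beside a docked vesicle. Synaptotagmin senses the calcium, and a complex of the vesicle SNARE synaptobrevin with the plasma membrane SNAREs syntaxin and SNAP-25 pulls the membranes together, after Munc13 and CAPS proteins have primed the vesicle and while complexins hold the complex ready. RIM, Bassoon, Piccolo and ELKS proteins organise the release site, NSF with its SNAP adaptors takes spent SNARE complexes apart, and dynamin and amphiphysin proteins retrieve membrane for refilling. These mRNAs are made in neuronal cell bodies, so a hemisphere sample reads them from all of its neurons together.

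Before the values, 3 facts of the arrays bear on all of them. Hsp72Tg MCAO 1 stood apart from the other MCAO arrays: on the first principal component of all genes the shams lay between -23.7 and -20.7, the other 5 MCAO arrays between 11.7 and 32.3, and this array at -12.9. WT sham 1 alone carried cerebellar signal, with the cerebellar granule cell receptor subunit Gabra6 at 9.46 against 4.15 to 4.49 elsewhere. Hspa1a, one of the genes for Hsp72, read 8.54 and 8.45 in WT sham and 8.28 and 8.53 in Hsp72Tg sham, so this probe set did not separate the genotypes before injury, and whether it reads the transgene's RNA is unknown here. After MCAO it read 10.62, 11.57 and 11.27 in WT and 10.63, 13.23 and 12.11 in Hsp72Tg. All values are log2 expression values, and no level of one gene is set against that of another.

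Across the 6 MCAO arrays, most of the presynaptic genes read slightly lower than in the sham arrays, and none passed the test. Over both genotypes 30 of the 33 (90.9%) had a difference, MCAO minus sham, below 0, against 57.5% of all 18193 genes. The median difference of the 33 was -0.12, against -0.03 for all genes. The largest were in Stx1a, the plasma membrane syntaxin, at -0.54, which is a level 31.0% lower, and Unc13a, the priming factor Munc13-1, at -0.36. The highest were in the vesicle glycoprotein Sv2a and the synapsin Syn2, both at 0.08. Differences were tested with limma on all genes and all 10 arrays, with Benjamini-Hochberg adjustment over the 18193 genes and a threshold of 0.05 for the adjusted p. At that threshold 0 of the 33 were called, against 1.46% of all genes. At an unadjusted p under 0.05 there were 5 of the 33 (15.2%), namely Syt1, Stx1a, Rab3c, Syngr3 and Cadps, against 19.1% of all genes, so the share of members with a small p was no higher than the background. In a hemisphere sample, fewer neurons and less RNA per neuron cannot be told apart.

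**Figure D1:**
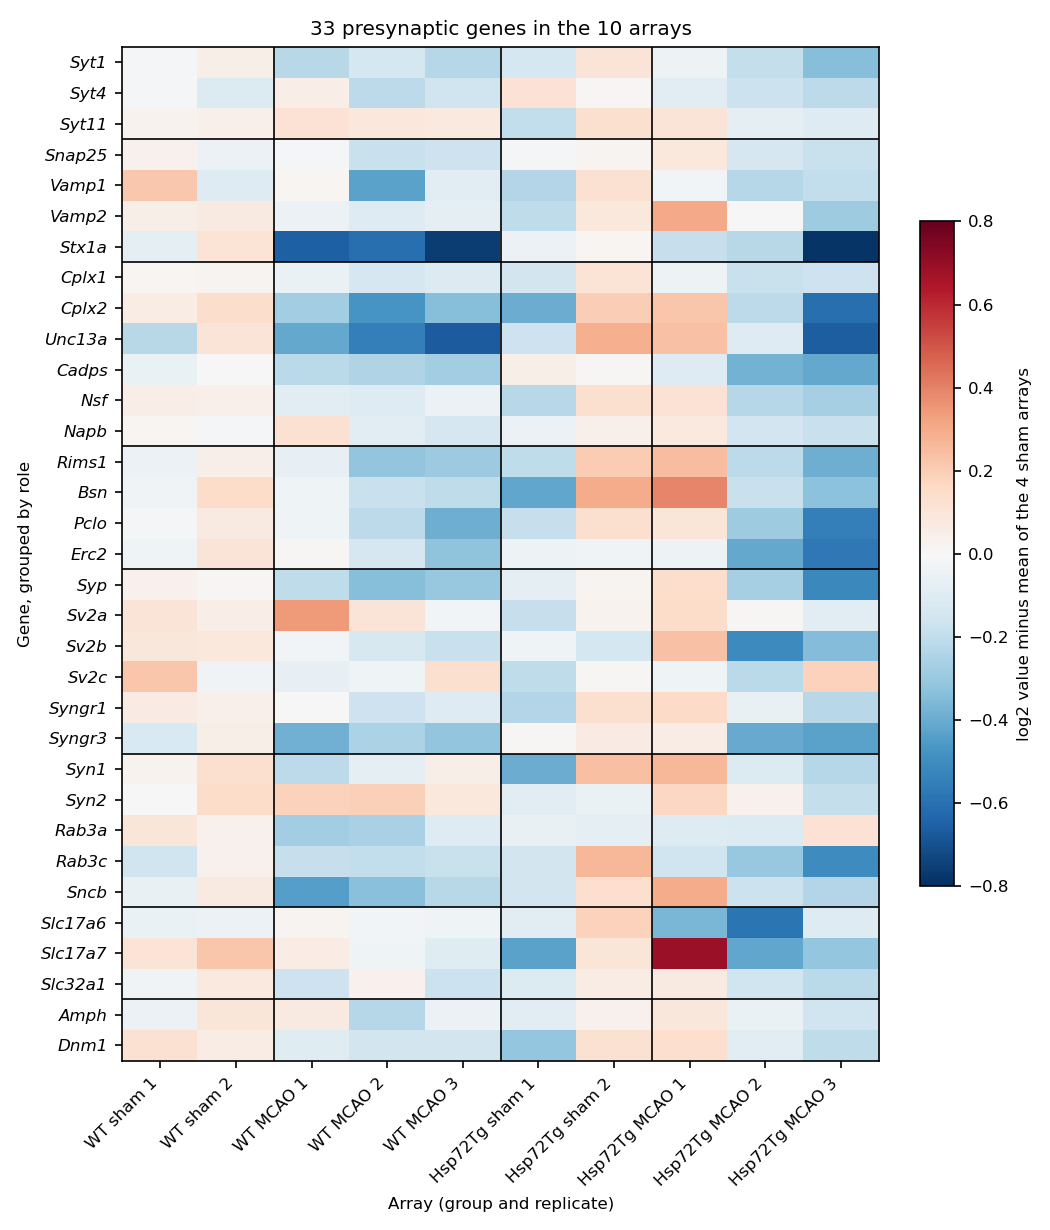
Each row is 1 of the 33 genes, grouped by role, and each column 1 of the 10 arrays. Colour gives the log2 value minus the mean of the 4 sham arrays, blue lower and red higher. The WT MCAO arrays and Hsp72Tg MCAO 2 and 3 are mostly blue, while Hsp72Tg MCAO 1 is mostly red, with 15 of the 33 genes above all 4 sham arrays.

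In WT mice alone, 29 of the 33 genes (87.9%) had a difference below 0, against 56.7% of all genes, with a median of -0.18 against -0.02. In 20 of the 33 (60.6%) all 3 MCAO arrays lay below both sham arrays, against 22.5% of all genes. limma called 0 of them at an adjusted p under 0.05, against 0.055% of all genes, and 2 (6.06%), Stx1a and Rab3a, had an unadjusted p under 0.05, against 10.2%. In Hsp72Tg mice 22 of the 33 (66.7%) were below 0, against 55.6%, with a median of -0.08 against -0.02. Without Hsp72Tg sham 2 the median was 0.03 with 14 of 33 below 0, and without Hsp72Tg sham 1 it was -0.24 with 31 below 0. With all arrays 6 of the 33 (18.2%), Syt4, Stx1a, Rab3c, Slc17a6, Erc2 and Cadps, had all MCAO arrays below both sham arrays, against 12.8% of all genes. limma again called 0, against 0.022% of all genes, and 4 (12.1%), Stx1a, Rab3c, Slc17a6 and Cadps, had an unadjusted p under 0.05, against 12%. Across both genotypes, all 6 MCAO arrays lay below all 4 sham arrays for 3 genes (9.09%), Stx1a, Rab3c and Cadps, against 3.41% of all genes. For 0 genes did they all lie above, against 3.19% of all genes.

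**Figure D2:**
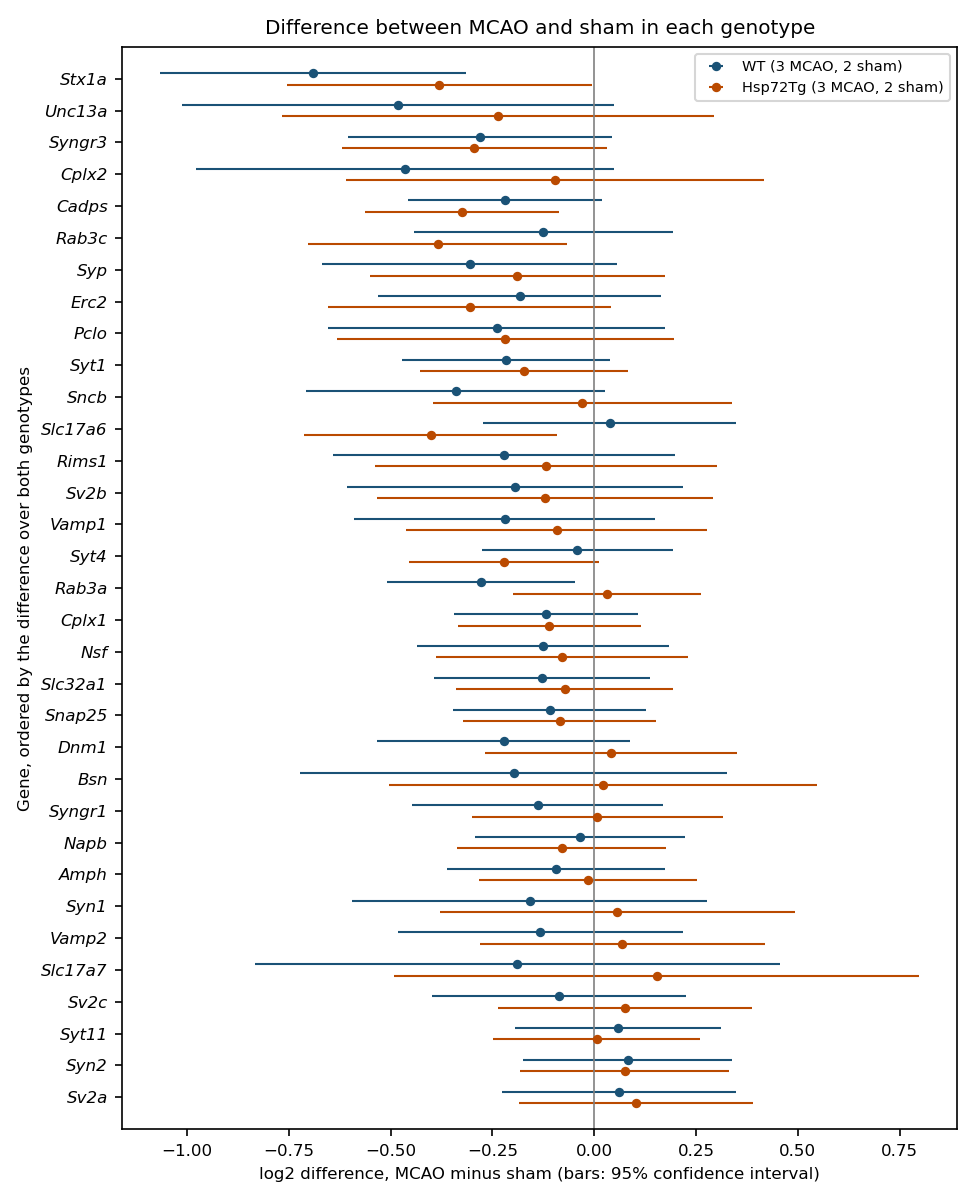
Points give the log2 difference, MCAO minus sham, of each gene in WT (blue) and Hsp72Tg (orange), and bars the 95% confidence interval from the fit on all 10 arrays. Genes are ordered by the difference over both genotypes, from Stx1a at -0.54 to Sv2a at 0.08, and the intervals of most genes cross 0.

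The synaptotagmins sense calcium on the vesicle. Syt1, the fast sensor of forebrain synapses, read 13.44 and 13.50 in WT sham, 13.23, 13.31 and 13.22 in WT MCAO, 13.31 and 13.56 in Hsp72Tg sham, and 13.41, 13.26 and 13.11 in Hsp72Tg MCAO. The WT groups did not overlap and the Hsp72Tg groups did. Its difference over both genotypes was -0.19 ± 0.08 (SE), with a limma p of 0.0375 that did not pass after adjustment (adjusted p = 0.229). Syt4 and Syt11 encode synaptotagmins that do not bind calcium as Syt1 does, and they lay on opposite sides of 0. Syt4 was at -0.13 ± 0.07 (SE) over both genotypes, -0.04 in WT and -0.22 in Hsp72Tg, and Syt11 at 0.03 ± 0.08 (SE). Whether these differ from each other was not tested, and the estimate for Syt11 turned to -0.05 without Hsp72Tg sham 1. The other probe set of Syt4 gave 0.09 ± 0.12 (SE) over both genotypes, 0.09 in WT and 0.09 in Hsp72Tg. The place of Syt4 below 0 thus belonged to the brighter probe set.

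Among the SNARE proteins, Stx1a had the largest difference of all 33 genes. It encodes syntaxin 1A, the plasma membrane SNARE of the terminal. It read 11.92 and 12.10 in WT sham, 11.34, 11.38 and 11.23 in WT MCAO, 11.94 and 12.01 in Hsp72Tg sham, and 11.81, 11.77 and 11.21 in Hsp72Tg MCAO. Every MCAO array lay below every sham array. Of the Hsp72Tg MCAO arrays, replicates 1 and 2 lay close under the shams and replicate 3 far below. The group means were 12.01 ± 0.13 (SD, n = 2) and 11.32 ± 0.08 (SD, n = 3) in WT, and 11.97 ± 0.04 (SD, n = 2) and 11.59 ± 0.34 (SD, n = 3) in Hsp72Tg. The difference was -0.54 ± 0.12 (SE) over both genotypes, with a 95% confidence interval from -0.80 to -0.27 and a limma adjusted p of 0.0597. It was -0.69 in WT (adjusted p = 0.184) and -0.38 in Hsp72Tg (adjusted p = 0.412), and the difference between these was 0.31 with an interval from -0.22 to 0.84. Without Hsp72Tg MCAO 1 Stx1a fell by 0.59 over both genotypes (adjusted p = 0.00989), and without Hsp72Tg MCAO 3 by 0.44 (adjusted p = 0.0361). With all 10 arrays it passed under a filter on dim probe sets (adjusted p = 0.0491), a trended and robust prior (adjusted p = 0.043) and array weights (adjusted p = 0.0177), and in WT in a fit on the WT arrays alone (adjusted p = 0.00815).

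Stx1a lies on chromosome 5 of the mouse assembly GRCm38.p6 at positions 135023482 to 135051100. Its promoter is shown because Stx1a had the largest difference of the set. The 250 bases before its RefSeq start, at chr5:135023232-135023481 on the plus strand, are printed 5′ to 3′, with a core cAMP response element (TGACG) and an Sp1 box (GGGCGG) in capitals.
Stx1a: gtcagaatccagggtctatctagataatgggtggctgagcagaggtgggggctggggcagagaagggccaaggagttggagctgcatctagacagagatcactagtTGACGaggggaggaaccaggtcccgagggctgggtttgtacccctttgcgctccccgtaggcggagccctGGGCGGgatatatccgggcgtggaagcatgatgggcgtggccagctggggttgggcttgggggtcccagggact
The TGACG letters begin 144 bases before the start and the GGGCGG letters 74 bases before it.

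The vesicle SNAREs showed smaller differences. Vamp2 encodes the synaptobrevin of most forebrain synapses and Vamp1 that of many hindbrain and motor synapses. Vamp2 read 12.50 and 12.53 in WT sham, 12.41, 12.36 and 12.39 in WT MCAO, 12.26 and 12.54 in Hsp72Tg sham, and 12.76, 12.46 and 12.18 in Hsp72Tg MCAO. WT MCAO lay below WT sham in all arrays, whereas the Hsp72Tg groups overlapped widely. Over both genotypes Vamp2 was at -0.03 ± 0.11 (SE) and Vamp1 at -0.16 ± 0.12 (SE). Vamp1 read 11.73 and 11.41 in WT sham against 11.53, 11.09 and 11.43 in WT MCAO, which overlapped. Its higher WT sham value came from WT sham 1, the array with cerebellar signal. Snap25, the SNARE partner of syntaxin that supplies helices from the plasma membrane, was at -0.10 ± 0.07 (SE), with means of 13.82 ± 0.06 (SD, n = 2) and 13.71 ± 0.09 (SD, n = 3) in WT. All 4 SNARE genes were below 0 over both genotypes, with 1 unadjusted p under 0.05, that of Stx1a.

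The genes that prime the vesicle or act on the SNARE complex were all 6 below 0 over both genotypes, with a median of -0.19. Cadps, the priming factor CAPS-1, read 11.98 and 12.04 in WT sham, 11.82, 11.80 and 11.76 in WT MCAO, 12.09 and 12.05 in Hsp72Tg sham, and 11.94, 11.66 and 11.63 in Hsp72Tg MCAO. All MCAO arrays lay below all sham arrays, and Hsp72Tg MCAO 1 was the highest of them. Its difference was -0.27 ± 0.08 (SE), with a limma p of 0.00501 and an adjusted p of 0.1. The estimate was -0.22 in WT and -0.33 in Hsp72Tg. Without Hsp72Tg MCAO 1 it fell by 0.32 over both genotypes (adjusted p = 0.0115) and by 0.42 in Hsp72Tg (adjusted p = 0.03).

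Unc13a makes docked vesicles ready for fusion. It read 9.35 and 9.67 in WT sham, 9.16, 9.02 and 8.91 in WT MCAO, 9.41 and 9.85 in Hsp72Tg sham, and 9.80, 9.47 and 8.91 in Hsp72Tg MCAO. The WT groups did not overlap, and in Hsp72Tg the array MCAO 1 lay near the higher sham array. The difference was -0.36 ± 0.17 (SE) over both genotypes (limma adjusted p = 0.279), -0.48 in WT and -0.24 in Hsp72Tg, and it was -0.46 (adjusted p = 0.062) without Hsp72Tg MCAO 1.

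The complexins clamp and then assist the SNARE complex. Cplx2, the form of many excitatory forebrain neurons, read 12.06 and 12.14 in WT sham, 11.72, 11.53 and 11.66 in WT MCAO, 11.60 and 12.20 in Hsp72Tg sham, and 12.22, 11.79 and 11.40 in Hsp72Tg MCAO. In WT the groups were clearly apart, while each Hsp72Tg group spread over more than the whole WT difference. The difference was -0.46 ± 0.23 (SE) in WT and -0.10 ± 0.23 (SE) in Hsp72Tg, with limma adjusted p of 0.541 and 0.906. In a fit on the WT arrays alone, which leaves out the wide Hsp72Tg spread, Cplx2 fell in WT (adjusted p = 0.0312). Cplx1 differed by -0.12 in WT and -0.11 in Hsp72Tg, with the smallest SE of the set over both genotypes, 0.0711. Nsf, the ATPase that takes SNARE complexes apart, was at -0.10 ± 0.10 (SE), and Napb, its neuronal adaptor beta-SNAP, at -0.06 ± 0.08 (SE).

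The active zone scaffolds were all 4 below 0 over both genotypes, with a median of -0.20 and none at an unadjusted p under 0.05. Erc2, which encodes the scaffold ELKS2, read 11.67 and 11.80 in WT sham, 11.71, 11.57 and 11.37 in WT MCAO, 11.66 and 11.67 in Hsp72Tg sham, and 11.65, 11.29 and 11.13 in Hsp72Tg MCAO. The Hsp72Tg groups did not overlap, although Hsp72Tg MCAO 1 lay directly under the shams, and the WT groups did. Its difference was -0.24 ± 0.11 (SE) over both genotypes (limma adjusted p = 0.264), -0.18 in WT and -0.31 in Hsp72Tg. Pclo (Piccolo) was at -0.23 ± 0.13 (SE), Rims1 (the RIM scaffold that tethers calcium channels and vesicles) at -0.17 ± 0.13 (SE), and Bsn (Bassoon) at -0.09 ± 0.17 (SE). Bsn ranged from 10.53 to 11.25 within the Hsp72Tg shams alone, wider than any group difference of that gene.

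Of the vesicle membrane proteins, 5 of 6 were below 0 over both genotypes. Syngr3, a synaptogyrin of the vesicle membrane, read 10.78 and 10.94 in WT sham, 10.51, 10.64 and 10.58 in WT MCAO, 10.91 and 10.96 in Hsp72Tg sham, and 10.96, 10.50 and 10.47 in Hsp72Tg MCAO. All MCAO arrays except Hsp72Tg MCAO 1 lay below all 4 sham arrays. The difference was -0.29 ± 0.10 (SE) over both genotypes (limma adjusted p = 0.17), at -0.28 in WT and -0.29 in Hsp72Tg. Without Hsp72Tg MCAO 1 Syngr3 fell by 0.37 (adjusted p = 0.00998). Its relative Syngr1 was at -0.07 ± 0.10 (SE), with -0.14 in WT and 0.01 in Hsp72Tg.

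Synaptophysin, from Syp, is the classic marker protein of synaptic vesicles. It read 12.50 and 12.48 in WT sham, 12.26, 12.13 and 12.17 in WT MCAO, 12.39 and 12.49 in Hsp72Tg sham, and 12.61, 12.20 and 11.95 in Hsp72Tg MCAO. Again Hsp72Tg MCAO 1 was the single MCAO array not below the shams, and it was the highest of all 10. The difference was -0.25 ± 0.11 (SE) over both genotypes (limma adjusted p = 0.275), and without Hsp72Tg MCAO 1 Syp fell by 0.34 (adjusted p = 0.0227). The 3 SV2 glycoproteins, carriers of unknown cargo that regulate release, did not line up. Sv2b was at -0.16 ± 0.13 (SE), Sv2c at -0.01 ± 0.10 (SE) and Sv2a at 0.08 ± 0.09 (SE). Sv2a read 11.32 and 11.27 in WT sham against 11.56, 11.32 and 11.19 in WT MCAO, and 11.03 and 11.25 in Hsp72Tg sham against 11.37, 11.23 and 11.13 in Hsp72Tg MCAO, so both genotypes overlapped. The sign of Sv2c turned to 0.06 without WT sham 1. Its probe set was dim, reading from 5.615 to 6.051 over the 10 arrays, below the array medians of 6.67 to 6.73. At such a level a difference near 0 says little about Sv2c. Whether the 3 SV2 genes differ from each other was not tested.

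Of the proteins on the vesicle surface or free in the terminal, 4 of 5 were below 0 over both genotypes. The small GTPase Rab3c read 11.91 and 12.10 in WT sham, 11.88, 11.87 and 11.89 in WT MCAO, 11.92 and 12.33 in Hsp72Tg sham, and 11.91, 11.76 and 11.56 in Hsp72Tg MCAO. All MCAO arrays lay below all shams, but the highest MCAO array and the lowest sham both read 11.91 at this rounding. The difference was -0.25 ± 0.10 (SE) over both genotypes (limma adjusted p = 0.208), -0.13 in WT and -0.38 in Hsp72Tg. The Hsp72Tg estimate was -0.59 without Hsp72Tg sham 1 and -0.18 without Hsp72Tg sham 2.

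Rab3a, the main vesicle GTPase of the brain, read 12.86 and 12.80 in WT sham, 12.48, 12.50 and 12.66 in WT MCAO, 12.70 and 12.69 in Hsp72Tg sham, and 12.65, 12.65 and 12.88 in Hsp72Tg MCAO. In WT it differed by -0.28 ± 0.10 (SE) (limma adjusted p = 0.385), and in Hsp72Tg by 0.03. Its other probe set gave -0.30 in WT and -0.21 in Hsp72Tg, so the contrast between genotypes in Rab3a belonged to the brighter probe set. That brighter probe set is of a design that can cross-react with other transcripts. Over both genotypes it gave -0.12, and the other -0.25 ± 0.09 (SE), with a limma adjusted p of 0.187 over all probe sets. Sncb, which encodes beta-synuclein, read 11.34 and 11.47 in WT sham, 10.95, 11.06 and 11.17 in WT MCAO, 11.25 and 11.53 in Hsp72Tg sham, and 11.69, 11.22 and 11.16 in Hsp72Tg MCAO. Sncb differed by -0.34 ± 0.16 (SE) in WT (limma adjusted p = 0.524) and by -0.03 in Hsp72Tg, where MCAO 1 was the highest of the 10 arrays.

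The synapsins tether vesicles to each other in the reserve pool. Syn1 was at -0.05 ± 0.14 (SE) over both genotypes, with -0.16 in WT and 0.06 in Hsp72Tg. Syn2 was at 0.08 ± 0.08 (SE), with 11.77 and 11.92 in WT sham against 11.96, 11.96 and 11.85 in WT MCAO, and 11.68 and 11.72 in Hsp72Tg sham against 11.94, 11.81 and 11.58 in Hsp72Tg MCAO. Both genotypes overlapped, and the mean over the 6 probe sets of Syn2 gave -0.06.

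Syn1 lies on the minus strand of chromosome X at positions 20860511 to 20920918 in GRCm38.p6. Its promoter is shown because it was the only one of the 29 searched with a full cAMP response element, and because it also holds letters of the element bound by REST, a repressor of neuronal genes outside neurons. The 250 bases before its start, at chrX:20920919-20921168 on the minus strand, have TGACGTCA and both copies of CAGCACC, the left part of the REST element, in capitals.
Syn1: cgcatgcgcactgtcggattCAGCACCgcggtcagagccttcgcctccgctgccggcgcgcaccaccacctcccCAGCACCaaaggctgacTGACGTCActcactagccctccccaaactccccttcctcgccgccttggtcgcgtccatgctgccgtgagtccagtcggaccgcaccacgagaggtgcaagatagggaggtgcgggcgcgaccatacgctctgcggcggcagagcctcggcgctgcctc
The TGACGTCA letters begin 159 bases before the start, and the CAGCACC letters 230 and 176 bases before it.

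The vesicular transporters load transmitter into the vesicle and mark the kind of neuron. Slc17a6 (VGLUT2), the glutamate transporter of thalamic and other subcortical neurons, read 10.81 and 10.82 in WT sham, 10.89, 10.84 and 10.83 in WT MCAO, 10.78 and 11.05 in Hsp72Tg sham, and 10.50, 10.28 and 10.76 in Hsp72Tg MCAO. WT MCAO lay above WT sham in all arrays, by a small margin, and Hsp72Tg MCAO below Hsp72Tg sham in all arrays. The difference was 0.04 ± 0.14 (SE) in WT and -0.40 ± 0.14 (SE) in Hsp72Tg (limma adjusted p = 0.358). Here MCAO 3, not MCAO 1, was the Hsp72Tg array nearest its shams. The 7 thalamic markers measured had mean levels from 8.26 to 8.29 in WT sham, 8.33 to 8.46 in WT MCAO, 8.15 to 8.41 in Hsp72Tg sham and 7.99 to 8.27 in Hsp72Tg MCAO. For 5 of the 7 the MCAO change was lower in Hsp72Tg, with Ntng1 at -0.71 ± 0.21 (SE) and Prkcd at -0.65 ± 0.23 (SE), and 0 passed adjustment. Their part in the difference of Slc17a6 was not tested.

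Slc17a7 (VGLUT1), the transporter of cortical and hippocampal glutamate neurons, read 11.63 and 11.74 in WT sham, 11.58, 11.49 and 11.43 in WT MCAO, 11.09 and 11.62 in Hsp72Tg sham, and 12.21, 11.11 and 11.21 in Hsp72Tg MCAO. In WT the MCAO arrays lay below the shams. In Hsp72Tg the array MCAO 1 was far above all others, and Hsp72Tg MCAO had an SD of 0.61 (n = 3). The difference over both genotypes was -0.02 ± 0.20 (SE), the widest SE of the 33, and its interval reached 0.44, the highest upper bound of the set. The 9 markers of cortex and hippocampus ranged likewise in Hsp72Tg MCAO, from 8.99 to 9.58 in mean level, against 9.31 to 9.46 in Hsp72Tg sham, and their part was not tested. Slc32a1, the transporter of GABA and glycine, was at -0.10 ± 0.08 (SE), with 9.98 and 10.09 in WT sham against 9.84, 10.04 and 9.84 in WT MCAO, which overlapped. The 8 markers of inhibitory neurons had a median of -0.07 over both genotypes, with 1 at an unadjusted p under 0.05 and 0 called by limma.

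Neither endocytosis gene of the set passed the test. Dnm1, the neuronal dynamin that cuts vesicles from the plasma membrane, read 13.18 and 13.12 in WT sham, 12.96, 12.91 and 12.91 in WT MCAO, 12.75 and 13.18 in Hsp72Tg sham, and 13.19, 12.97 and 12.85 in Hsp72Tg MCAO. WT MCAO lay below WT sham in all arrays, whereas the Hsp72Tg groups overlapped. The difference was -0.22 ± 0.14 (SE) in WT and 0.04 ± 0.14 (SE) in Hsp72Tg, and a second probe set of Dnm1 gave -0.43 and 0.02. Amph, the amphiphysin that recruits it, was at -0.09 in WT and -0.01 in Hsp72Tg.

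**Figure D3:**
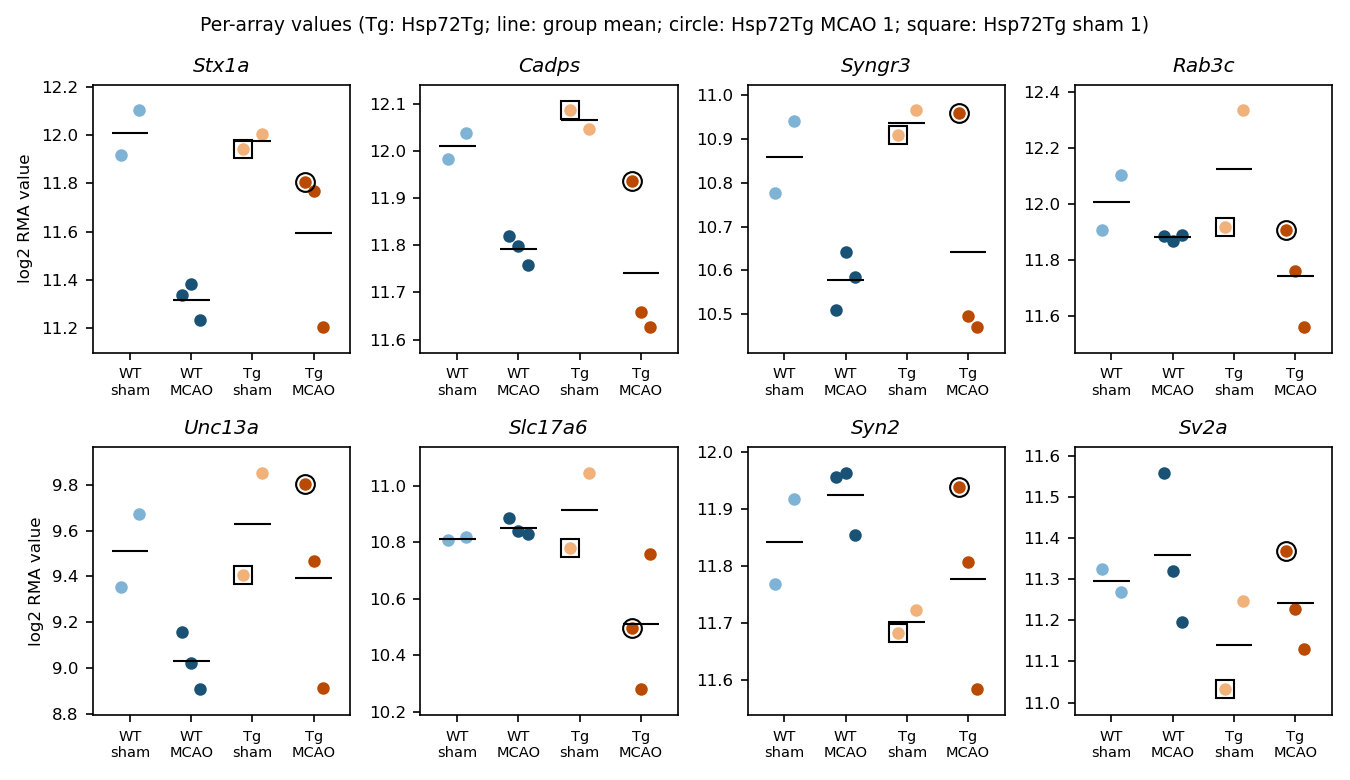
Each panel shows 1 gene, with a point for each array and a line for the group mean of the log2 value. The circle marks Hsp72Tg MCAO 1 and the square Hsp72Tg sham 1. Stx1a, Cadps and Rab3c have every MCAO array below every sham array, in Syngr3 and Unc13a the circled array lies at the level of the shams, and Syn2 and Sv2a show no separation.

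The genotypes were compared in their MCAO changes, after MCAO and after sham surgery, and 0 of the 33 genes passed in any of these (limma adjusted p), against 0% of all genes in each. At an unadjusted p under 0.05, the difference of the MCAO changes had 1 of the 33 (3.03%), Slc17a6 at -0.44 ± 0.20 (SE), against 1.75% of all genes. Hsp72Tg against WT after MCAO had 1, again Slc17a6, at -0.34, against 2.68%. After sham surgery it had 0, against 1.56%. Of the MCAO changes, 9 of the 33 were lower in Hsp72Tg than in WT, against 9569 of all 18193 genes. The median difference was 0.07, against -0.01 for all genes. Next to Slc17a6 the largest were in Cplx2 at 0.37 ± 0.32 (SE), Slc17a7 at 0.34 ± 0.41 (SE), Sncb at 0.31 ± 0.23 (SE) and Stx1a at 0.31 ± 0.24 (SE). Without Hsp72Tg MCAO 1 those of Cplx2 and Slc17a7 were 0.16 and -0.01, without Hsp72Tg sham 1 they were 0.07 and 0.08, and without Hsp72Tg sham 2 they were 0.67 and 0.61. The interval of the difference ran from -0.36 to 1.09 for Cplx2, so an equal response of the genotypes is not shown by the missed threshold.

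Hsp72Tg MCAO 1 stood apart from the other MCAO arrays. Its median deviation from the mean of the 4 shams, over the 33 genes, was 0.10, against -0.18 and -0.24 in the other Hsp72Tg MCAO arrays and -0.05, -0.16 and -0.16 in WT MCAO. It was the highest of all 10 arrays for 12 of the 33 genes, and Hsp72Tg MCAO 3 was the lowest for 16. The shams differed too: Hsp72Tg sham 1 had a median of -0.15 and was the lowest array for 7 genes, whereas Hsp72Tg sham 2 had 0.10 and was the highest for 9. The WT shams had 0.02 and 0.05. The number of members below all 4 shams was 10, 17 and 17 in the WT MCAO arrays and 6, 20 and 23 in the Hsp72Tg MCAO arrays. As a share these are 30.3%, 51.5%, 51.5%, 18.2%, 60.6% and 69.7%, against 29.3%, 28.1%, 25.8%, 22.5%, 37.3% and 30.1% of all genes in the same arrays.

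Without Hsp72Tg MCAO 1, 6 of the 33 genes (18.2%) fell over both genotypes (limma adjusted p under 0.05), against 6.35% of all genes, and 0 rose, against 6.02%. These were Stx1a, Syngr3, Cadps, Syp, Erc2 and Sv2b. In the same fit 8 of 8 striatal markers, 5 of 12 general neuron markers and 4 of 17 postsynaptic genes also fell. Erc2 fell by 0.32 (adjusted p = 0.0429) and Sv2b by 0.27 (adjusted p = 0.043). In WT 1 gene fell, Stx1a (adjusted p = 0.0498), against 0.583% of all genes, and in Hsp72Tg 2 fell, Syngr3 (adjusted p = 0.035) and Cadps, against 3.11%. The groups were then apart, MCAO below sham, for 6 of the 33 over both genotypes (18.2%), against 7.5% of all genes, and for 18 of the 33 within Hsp72Tg (54.5%), against 25.4%. Without Hsp72Tg sham 1 instead, 14 of the 33 (42.4%) were apart within Hsp72Tg, against 24.9%, and the median difference in Hsp72Tg was -0.24. These arrays were left out after their values had been seen, so these counts describe how far the result rests on them.

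**Figure D4:**
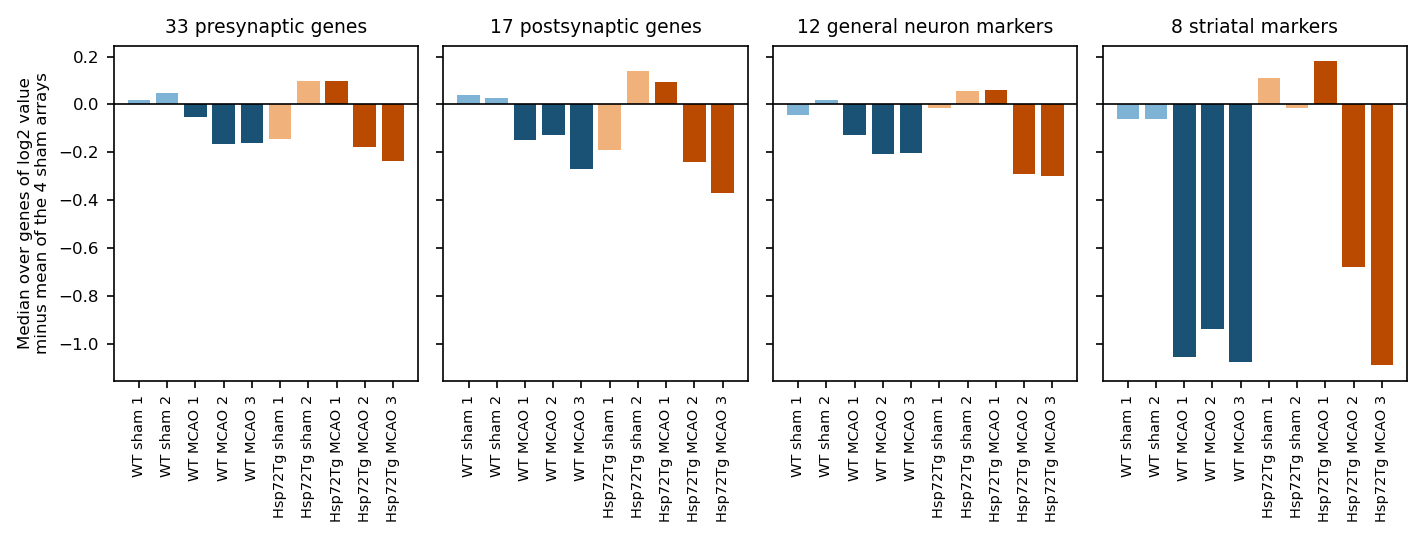
Bars give, for each array, the median over the genes of a list of the log2 value minus the mean of the 4 shams, for the 33 presynaptic genes, 17 postsynaptic genes, 12 general neuron markers and 8 markers of striatal projection neurons. Hsp72Tg MCAO 1 is above 0 in all 4 panels, and the striatal bars of the other MCAO arrays reach down to -1.09.

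The neuronal markers moved with these differences in the same arrays. Of 12 general neuron markers 11 were below 0 over both genotypes, with 5 at an unadjusted p under 0.05, 0 called by limma and a median of -0.17. Their median deviation was -0.13, -0.21 and -0.20 in WT MCAO and 0.06, -0.29 and -0.30 in Hsp72Tg MCAO. Their mean log2 level ranged from 11.85 to 11.91 in WT sham, from 11.70 to 11.84 in WT MCAO, from 11.85 to 11.96 in Hsp72Tg sham and from 11.57 to 11.91 in Hsp72Tg MCAO. The 8 markers of striatal projection neurons measured, out of 11 listed, were all below 0 with a median of -0.76, all 8 at an unadjusted p under 0.05 and 0 past the adjusted threshold. Their median deviation was -1.05, -0.94 and -1.08 in WT MCAO and 0.18, -0.68 and -1.09 in Hsp72Tg MCAO. Drd1, the D1 dopamine receptor, was at -0.80 ± 0.17 (SE) with an adjusted p of 0.0567. The part of these markers in the presynaptic differences was not tested.

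Astrocyte markers had a median of 0.13 over both genotypes, and 1 of 8 rose, Gfap by 1.60 (limma adjusted p = 0.0113). Of 5 endothelial markers 2 rose, Cldn5 by 0.65 (adjusted p = 0.036) and Pecam1 by 1.003 (adjusted p = 0.035). The 6 markers of blood-derived myeloid cells had a median of 0.44 with 0 called. The 11 cerebellar markers ranged in mean level from 6.995 to 8.78 in WT sham and from 6.82 to 7.09 in the other groups, the upper end being WT sham 1. For the presynaptic genes that array was not extreme: it was the lowest for 0 and the highest for 2.

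The 33 genes had 82 probe sets between them, 9 genes with 1 and 24 with more. Over both genotypes 62 of the 82 (75.6%) were below 0, against 55.7% of the 34945 probe sets with 1 symbol, with a median of -0.10. Of the 82, 10 (12.2%) were lower at an unadjusted p under 0.05, against 9.64%, and 0 passed after adjustment over all probe sets, against 0.801%. In 13 of the 24 genes every probe set was below 0. The kept probe set of Stx1a is of a design that can cross-react with other transcripts, and its other one read 10.85 and 11.25 in WT sham, 10.05, 10.14 and 10.03 in WT MCAO, 10.82 and 11.01 in Hsp72Tg sham, and 10.98, 10.46 and 9.85 in Hsp72Tg MCAO. It gave a difference of -0.73 ± 0.19 (SE) with a limma adjusted p of 0.102 over all probe sets, and with Hsp72Tg MCAO 1 at the level of the shams. For Vamp2 the kept probe set gave -0.03 and the other -0.42 ± 0.25 (SE). For Cplx2 the 3 probe sets gave -0.39, -0.28 and -0.01, and for Vamp1 -0.35 and -0.16. Other genes had probe sets on both sides of 0. Slc32a1 ran from -0.10 to 0.20 and Nsf from -0.10 to 0.11, each with only 1 of 4 probe sets below 0. Syt4 had -0.13 and 0.09, and Pclo ran from -0.24 to 0.13. For Slc17a6 the other probe set gave 0.28 in WT and -0.21 in Hsp72Tg, a difference between genotypes of -0.49 ± 0.32 (SE). The second probe set of Snap25, at 0.31 ± 0.16 (SE), read from 4.69 to 5.56, about the lower quartile of each array, which lay between 5.14 and 5.21, and 3 others of the 82 were below that quartile on all arrays.

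**Figure D5:**
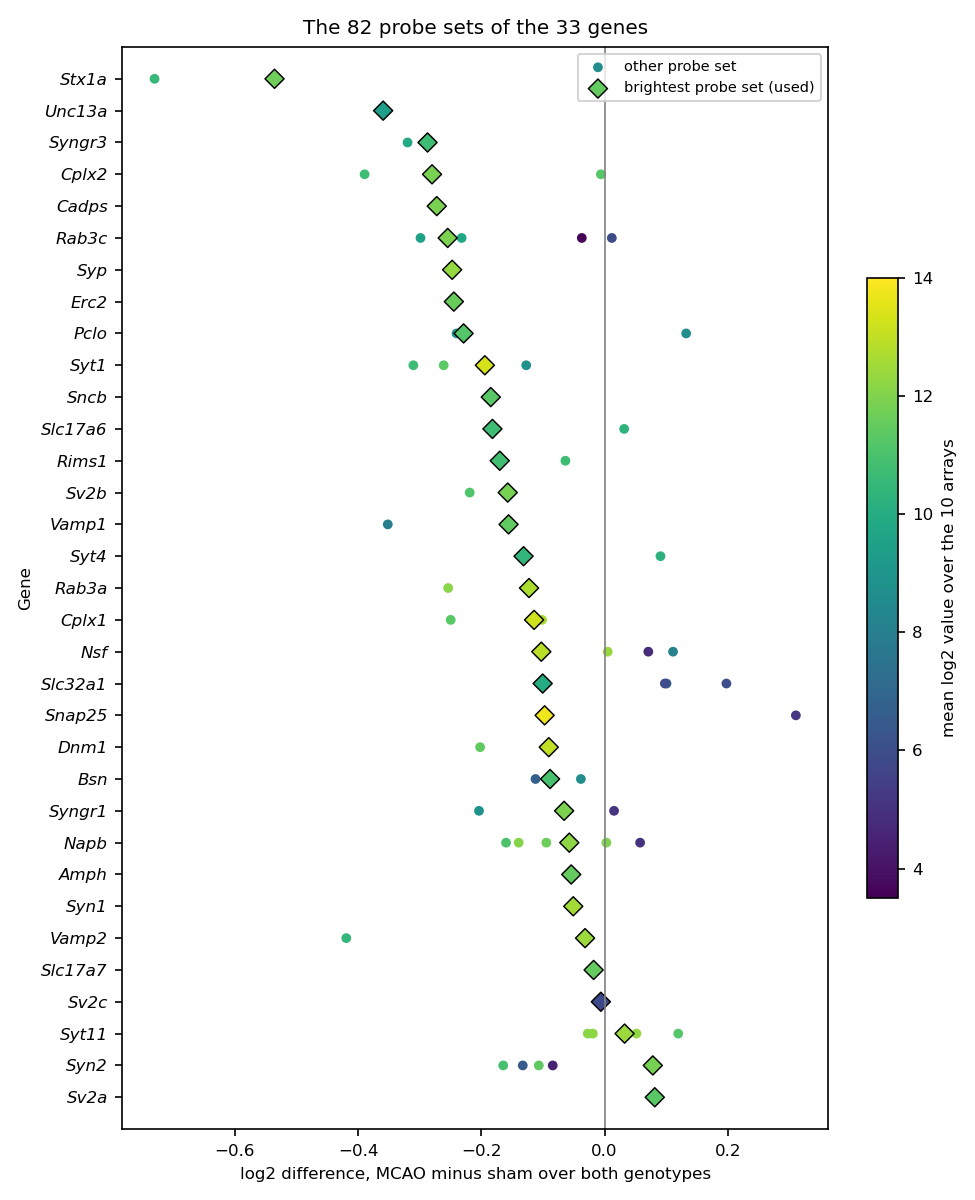
Every probe set of the 33 genes is 1 point, placed by its log2 difference, MCAO minus sham over both genotypes, and coloured by its mean log2 value. Diamonds mark the probe set used for the gene. Most points lie left of 0, and the dim probe sets, in dark colours, lie on both sides of it, up to 0.31 for Snap25.

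Beyond the set, 79 further presynaptic genes were listed and 73 of them measured. Of these 1 fell and 0 rose over both genotypes, against 1.46% of all genes called in either direction. In the same fit 61 were below 0, against 57.5% of all genes, and 18 had an unadjusted p under 0.05, against 19.1%, with a median of -0.10. The gene that fell was Cadps2, the relative of Cadps, by 0.56 ± 0.10 (SE) with a limma adjusted p of 0.0396. It read 10.90 and 10.79 in WT sham, 10.39, 10.22 and 10.05 in WT MCAO, 10.92 and 10.79 in Hsp72Tg sham, and 10.42, 10.55 and 10.10 in Hsp72Tg MCAO. For Cadps2 Hsp72Tg MCAO 1 lay with the other MCAO arrays. Without that array 10 of the 73 fell, against 6.35% of all genes.

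By role, all 13 other synaptotagmins and calcium sensors were below 0 over both genotypes, with Doc2b at -0.64 ± 0.14 (SE) (limma adjusted p = 0.0606) and Syt10 at -0.39 ± 0.17 (SE). Doc2b encodes a high-affinity calcium sensor linked to spontaneous and slow release. It read 9.37 and 9.34 in WT sham, 8.59, 8.70 and 8.86 in WT MCAO, 9.08 and 9.60 in Hsp72Tg sham, and 8.96, 8.80 and 8.31 in Hsp72Tg MCAO, with every MCAO array below every sham array. Of 12 other SNAREs and partners measured 10 were below 0. Of 17 other active zone genes 13 were, with the adaptors Lin7b at -0.58 ± 0.17 (SE) and Lin7a at -0.48 ± 0.12 (SE).

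Of 12 other vesicle proteins 9 were below 0, from Synpr (synaptoporin) at -0.63 ± 0.28 (SE) to Syngr2, a synaptogyrin found mainly outside neurons, at 0.38 ± 0.11 (SE). All 4 other transporters were below 0, with Slc18a2, the vesicular monoamine transporter, at -0.67 ± 0.31 (SE). Slc6a5 followed it, at -0.04 in WT and -0.50 in Hsp72Tg. Of 15 other endocytosis genes 12 were below 0, with a median of -0.06, and Dnm3 and Sh3gl2 (endophilin A1) were both at -0.20. On the other side of the synapse, 15 of 17 postsynaptic genes measured were below 0, with 0 called, 3 at an unadjusted p under 0.05 and a median of -0.17. The scaffold Dlg2 was at -0.40 ± 0.13 (SE) and the kinase subunit Camk2a at -0.39 ± 0.14 (SE). The differences among these lists were not tested.

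Promoter windows of 250 bases before the RefSeq start, assembly GRCm38.p6, were at hand for 29 of the 33 genes, and each motif was searched on both strands. The Sp1 box GGGCGG was in 18 of the 29 (62.1%), against 35.4% of all 27025 genes with a window. The core cAMP element TGACG was in 6 (20.7%), against 19.8%: Rab3a, Slc17a6, Sncb, Stx1a, Syn1 and Unc13a. The full palindrome TGACGTCA, which contains the core, was in 1 (3.45%), Syn1, against 1.77%. The left part of the REST element, CAGCACC, was in 2 (6.9%), Sv2c and Syn1, against 6.56%, and the right part, GGACAGC, was in 0, against 6.14%. The TATA box TATAAA was in 1 (3.45%), Sv2b, against 14.3%. These are counts of letters in a short window, and no binding was measured.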

How the data were processed

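Expression was measured on 10 Affymetrix arrays in 4 groups. The deposited values are log2 expression per probe set that the authors computed by RMA (submitters' processing notes), a method of background correction, normalization across arrays and summarization of probes. It can shrink differences of dim or saturated probe sets. The RMA version was not given in the sources used here. No detection flag was applied, and precision rests on the number of arrays.

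Of 45101 probe sets, 64 controls were left out, and 34945 had 1 symbol in the platform annotation, 932 several and 9160 none listed. By Entrez identifier 34741 matched the RefSeq table of GRCm38.p6, with 0 symbols changed. The brightest probe set of each gene gave 18193 genes.

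limma 3.58.1 in R 4.3.3 (lmFit, contrasts.fit, eBayes) was fitted with a mean per group on all 10 arrays, with 6 residual and 3.72 prior degrees of freedom. The 6 contrasts were MCAO minus sham over both genotypes, in WT and in Hsp72Tg, the difference of the latter pair, and Hsp72Tg minus WT after MCAO and after sham. Tests were two-sided with Benjamini-Hochberg adjustment over all genes. Errors are SEs of the contrast or SDs within a group. The scripts were tested on simulated data.

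The 33 genes, their roles, the other gene lists and the settings tried were chosen with earlier results of these data known. Values in every array are given for the 5 genes with the largest differences over both genotypes, in WT, in Hsp72Tg and between the MCAO changes, and for some others chosen after their values were seen. In each list of other presynaptic or postsynaptic genes, those that passed or, failing that, the 2 with the largest differences were named. Paralogs among the 33 were always given. The marker genes given by name, among them Drd1, Gfap, Neurod2 and Fezf2, were named after their values were seen, as were Gabra6 and Hspa1a.

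Alternatives were other priors, array weights, quantile normalization, centring on array medians, a filter on dim probe sets, the mean over probe sets, fits on the compared groups alone, a replicate block, single arrays left out and the pair WT sham 1 and Hsp72Tg MCAO 1 left out. Promoter sequences are RefSeq's.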

Additional observations from a re-analysis of the deposited data

Results flagged for a closer look

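Slc17a6 was the only one of the 33 genes whose MCAO arrays all lay on one side of their shams in WT and all on the other side in Hsp72Tg. The difference of the MCAO changes, Hsp72Tg minus WT, was -0.44 ± 0.20 (SE), with a limma p of 0.0495 and an adjusted p of 1. The WT margin was small, with sham arrays at 10.81 and 10.82 and MCAO arrays from 10.83 to 10.89. Opposite directions in every array were seen in 733 of 18193 genes (4.03%) and in 1 of the 33 (3.03%). The other probe set of Slc17a6 gave a difference of -0.49 ± 0.32 (SE).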

How the results depend on the processing

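The number of the 33 genes called over both genotypes, 0 with all 10 arrays, was 1 with a trended and robust prior, 1 with a filter on dim probe sets, 2 with array weights and 3 without WT sham 1 and Hsp72Tg MCAO 1. Of all genes 1.46% were called in the fit with all arrays and 1.52%, 2.57%, 6.13% and 6.47% in these 4, in that order. Leaving out single arrays gave 0 to 6, with 6 without Hsp72Tg MCAO 1 and 1 without Hsp72Tg MCAO 3, where 12.4% and 1.01% of all genes were called. In WT it was 2 in the fit on the compared arrays, 1 with array weights and 0 to 1 with single arrays left out, 1 each without Hsp72Tg MCAO 1 and Hsp72Tg MCAO 3. Of all genes 5.25%, 7.46%, 2.54% and 0.665% were called in these 4, in that order. In Hsp72Tg single arrays gave 0 to 2, with 2 without Hsp72Tg MCAO 1, where 6.49% of all genes were called. Every gene called lay lower after MCAO. The median in Hsp72Tg ran from -0.24 without Hsp72Tg sham 1 to 0.028 without Hsp72Tg sham 2, so its direction rests on which sham is kept. Counts of the 33 with all MCAO arrays below all shams (single arrays left out, chosen after seeing the data) ran from 3 to 6 over both genotypes and from 6 to 18 in Hsp72Tg. The share of all genes moved too. It was 3.41% over both genotypes and 12.8% in Hsp72Tg with all arrays. Without Hsp72Tg MCAO 1, where the counts were 6 and 18, it was 7.5% and 25.4%. Counts of the 33 below 0 in Hsp72Tg ran from 14 to 31, with 55.6% of all genes below 0 in the fit with all arrays.

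Of 627 alternative values for 33 comparisons of named genes, 585 kept direction and call, 18 passed where the main value had not, and 24 changed sign, all in genes with differences near 0 except that of Slc17a7 between genotypes. Over both genotypes Syn2 was -0.056 with the mean over probe sets, Sv2c 0.026 with array weights and 0.060 without the pair of arrays, Syt11 -0.0027 without that pair, and Slc17a7 0.0049 with quantile normalization. With single arrays left out, Vamp2 ran from -0.11 to 0.041, Syn1 from -0.21 to 0.11, Sv2c from -0.068 to 0.056, Syt11 from -0.049 to 0.11, Slc17a7 from -0.19 to 0.11 and Syngr1 from -0.16 to 0.025. The difference between genotypes of Slc17a7 ran from -0.0086 to 0.61. The cause of these changes was not tested.

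Over 13 same-numbered pairs of arrays the correlations of deviations from the group means ran from -0.16 to 0.25, with 2 over 0.1. In a group of 2 shams the deviations mirror each other, so these pairs are not independent. Pairs of unlike number were not set beside them, so whether the replicate numbers pair the arrays is not settled. With the replicate block 0 genes of the presynaptic set were called over both genotypes, against 0.104% of all genes. The median of the set over both genotypes was then -0.10, while Vamp2 was 0.041 and Slc17a7 0.075. Among the named genes the block changed no other direction and no call. With 2 shams per genotype, the SEs over both genotypes ran from 0.0711 to 0.2038.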

Other observations

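Other marker lists gave these values over both genotypes, where limma called 1.46% of all genes and 57.5% were below 0. Of 9 hindbrain markers 1 fell, Tph2, the serotonin synthesis enzyme of the raphe, by 1.62 (limma adjusted p = 0.00542), and the list's median was -0.08. Of 6 oligodendrocyte markers 1 fell, Mog, a myelin surface protein, by 0.58 (adjusted p = 0.0477), with a median of 0.01. In that list 3 were below 0, 4 had an unadjusted p under 0.05, and the highest was at 0.34. Of 5 microglial markers 0 passed and 3 were below 0, with a median of -0.003 and a highest value of 0.15. In that list 1 had an unadjusted p under 0.05. P2ry12, a receptor of resting microglia, was at -1.67 ± 0.37 (SE) with a limma adjusted p of 0.0586. The 9 markers of cortex and hippocampus had a median of -0.12, with 0 called and 3 at an unadjusted p under 0.05. They lay on both sides of 0, with 5 below it, Lamp5 at -0.88 ± 0.20 (SE) and the highest at 0.40. Neurod2 was higher after MCAO by 0.27 in WT and 0.25 in Hsp72Tg, and Fezf2 by 0.34 and 0.31.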
